A study of Mus musculus with 24 samples.

Results

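H3K27ac, the acetylation of a lysine in the tail of histone H3 that marks active promoters and enhancers, was mapped by ChIP-seq in mouse liver, and the regions described here carried a peak in both B6 lists and in neither CAST list. Overlapping peaks of 4 lists were merged on the autosomes wherever they shared at least 1 bp, which gave 117616 union regions. Of these, 4934 were B6-only. They made up 8.46% of the 58313 regions called in both B6 lists. The mirror class, called in both CAST lists and in neither B6 list, held 7265 regions, or 11.8% of the 61432 regions called in both CAST lists. The members were chosen by these calls, so the presence of a call in B6 and its absence in CAST are not results.

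The lists came from 20 livers of mice aged 8 weeks in 4 groups of 5, namely male and female C57BL/6J (B6) and male and female CAST/EiJ (CAST), with 1 input control per group. C57BL/6J and CAST/EiJ are inbred strains of different subspecies, and neither received a treatment that the labels name. Groups were read from the sample titles, since a separate strain field calls all females CAST and all males B6. By its name and the study's methods each list pools the livers of its group, although its peak names carry the code of a single library, and the lists do not settle which holds. Either way there is 1 list per group, so no value below has a spread between animals, and every test compares these lists and not the strains.

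An acetylated promoter lies at a transcript start and is usually rich in G+C and CpG, whereas acetylated enhancers lie in introns and between genes and often hold binding sequences of hepatocyte regulators. Across mammals, enhancer marks are known to change faster than promoter marks. The mark is read as a level of activity, and it does not say which gene a distal element controls. Members are therefore described by the nearest protein-coding start as a landmark only. In whole liver, fewer cells of a type and less mark per cell cannot be told apart.

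The B6 lists held 79862 peaks in males and 82181 in females, and the CAST lists 90228 and 84645. At regions called in all lists, the median fold enrichment over background was 3.03 in each B6 list, 3.25 in the male CAST list and 3.07 in the female one. All 6 hepatocyte markers (Alb, Apoa1, Ttr, Tat, Cps1 and Hnf4a) and all 4 endothelial markers had a call within 1 kb of a start in every list. Of 3 cholangiocyte markers, 2 had a call in every list and Krt19 had none. Of 4 Kupffer cell markers, 3 had no call in any list and Clec4f had one in B6 females alone. Of 3 stellate cell markers, 2 had no call, and of 4 lymphocyte markers, 3 had none. Beside the 8.46% over all regions of both B6 lists, B6-only regions were 2 of the 62 nearest to a hepatocyte marker, 11 of the 42 nearest to an endothelial marker and 3 of the 34 nearest to a cholangiocyte marker. Of those 11, 7 were nearest to Kdr. They were 0 of 3 at Kupffer cell markers, 0 of 3 at lymphocyte markers and 0 of 1 at stellate cell markers. The part of cell composition in these counts was not tested.

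**Figure D1:**
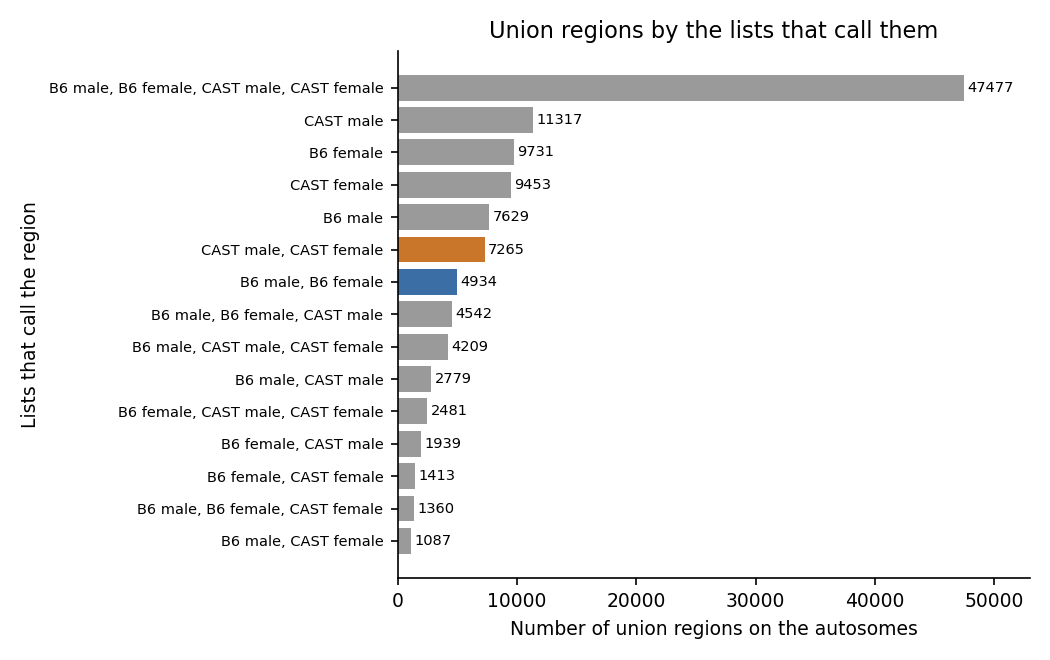
Number of autosomal union regions (x axis) for each combination of lists that calls them (y axis), with B6-only regions in blue and CAST-only regions in orange. The 4934 B6-only regions outnumber the combinations of 1 B6 and 1 CAST list, which hold between 1087 and 2779 regions.

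Pairs of lists were compared by the regions that they alone call. The B6 lists alone called 4934 regions, whereas the pairs that join 1 B6 and 1 CAST list called 2779 (both male), 1939 (B6 female and CAST male), 1413 (both female) and 1087 (B6 male and CAST female). The B6 lists shared 64.3% of the bases that either covers, above the 54.1% to 60% of the pairs across strains. Of the 5902 regions called in both B6 lists and 1 CAST list, 4542 had the call of the CAST male list and 1360 that of the CAST female list.

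Some sequences are shown before the values, each 200 bases around a summit, on the forward strand of NCBIM37 (mm9). The first is the member with the highest fold enrichment in B6 males, at 9:21969297-21969496 and 7.57 kb from the start of Pigyl, enriched 6.46-fold there and 6.29-fold in B6 females. The second, at 15:85464590-85464789 and 52.1 kb from Wnt7b, is one of the 10 highest-ranked members and held a C/EBP match, with folds of 3.44 and 4.22. The third lies 0.64 kb from a coding start of Lingo2, at 4:36897329-36897528, and is given for its G+C content of 72.5%. The last 3 are the members that held 3 of the motifs, at 12:106216968-106217167, 10:121962758-121962957 and 11:46112393-46112592. Capitals mark motif matches on either strand.
Pigyl: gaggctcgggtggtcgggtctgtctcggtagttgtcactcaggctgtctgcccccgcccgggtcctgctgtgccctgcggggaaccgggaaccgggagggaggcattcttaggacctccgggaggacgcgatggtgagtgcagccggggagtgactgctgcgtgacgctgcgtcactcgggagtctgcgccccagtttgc
Wnt7b: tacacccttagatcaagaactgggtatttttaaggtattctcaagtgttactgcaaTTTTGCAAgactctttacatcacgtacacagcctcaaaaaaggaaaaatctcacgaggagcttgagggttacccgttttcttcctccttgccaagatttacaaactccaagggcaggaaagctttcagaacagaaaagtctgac
Lingo2: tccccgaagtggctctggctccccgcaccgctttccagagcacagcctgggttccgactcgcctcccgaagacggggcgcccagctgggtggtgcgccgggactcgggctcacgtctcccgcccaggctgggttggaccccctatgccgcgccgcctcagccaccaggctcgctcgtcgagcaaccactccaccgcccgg
4831426I19Rik: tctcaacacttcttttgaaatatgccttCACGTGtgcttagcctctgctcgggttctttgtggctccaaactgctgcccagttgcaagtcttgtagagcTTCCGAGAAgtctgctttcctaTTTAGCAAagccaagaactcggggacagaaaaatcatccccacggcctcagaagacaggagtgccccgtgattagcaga
Avpr1a: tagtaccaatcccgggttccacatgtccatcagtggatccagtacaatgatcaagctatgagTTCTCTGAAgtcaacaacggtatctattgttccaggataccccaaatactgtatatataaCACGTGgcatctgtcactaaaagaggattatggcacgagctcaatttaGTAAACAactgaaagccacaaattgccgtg
Cyfip2: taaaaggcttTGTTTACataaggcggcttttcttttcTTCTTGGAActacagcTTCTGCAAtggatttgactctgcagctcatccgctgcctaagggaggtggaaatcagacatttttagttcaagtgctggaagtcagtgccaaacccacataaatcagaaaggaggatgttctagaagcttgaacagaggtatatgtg

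The member near 4831426I19Rik, in an intron and 19 kb from its start, was enriched 3.49-fold in the male and 3.19-fold in the female list, and its window held an E-box, a STAT and a C/EBP match. The member 77 kb from the start of Avpr1a, a vasopressin receptor gene, had 2.48 and 3.51, with STAT, E-box and FOXA matches. The member in an intron 12.6 kb from the start of Cyfip2 had 2.64 and 3.16, with FOXA, STAT and C/EBP matches. These 3 regions were picked for their matches, so the matches are a description.

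B6-only regions were mostly weak peaks. The rule asks that both CAST lists lack a call, and weak peaks are missed more easily. Their low scores are thus tied to the rule and are a description. Scores were turned into percentiles of their own list, where 100 is the strongest peak. In the B6 male list the median member stood at percentile 28.4 (quartiles 14.8 and 44.1), and the median region shared with CAST at 64.7. In the B6 female list the members' median was 33.6 (quartiles 17.8 and 49.8), against 64.7 for shared regions. The median fold enrichment of members was 2.22 in males, ranging from 1.31 to 6.46, and 2.27 in females, ranging from 1.29 to 12.2. Shared regions had a median of 2.91 in both lists. A fold of at least 1.5 in both lists was reached by 4869 members and a fold of at least 3 by 338, while 9 reached 5.

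The shares by score decile are tied to the rule in the same way and are a description. The share of B6-only regions fell from one score decile to the next. In the lowest decile, 1694 of 5831 regions called in both B6 lists were B6-only, or 29.1% (95% Wilson interval 27.9 to 30.2). In the fifth it was 6.43% (5.83 to 7.09), and in the eighth 0.635% (0.461 to 0.873). The ninth held 5 members and the highest decile 0 of 5832, which allows a share of up to 0.0658% by the same interval. The median −log10 q-value of members was 5.95 in males and 6.72 in females, above the lowest called values of 1.3 and 1.31. A value of 2 or less was found in either list for 116 members and in both for 1. The CAST signal at these places was not analysed here.

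**Figure D2:**
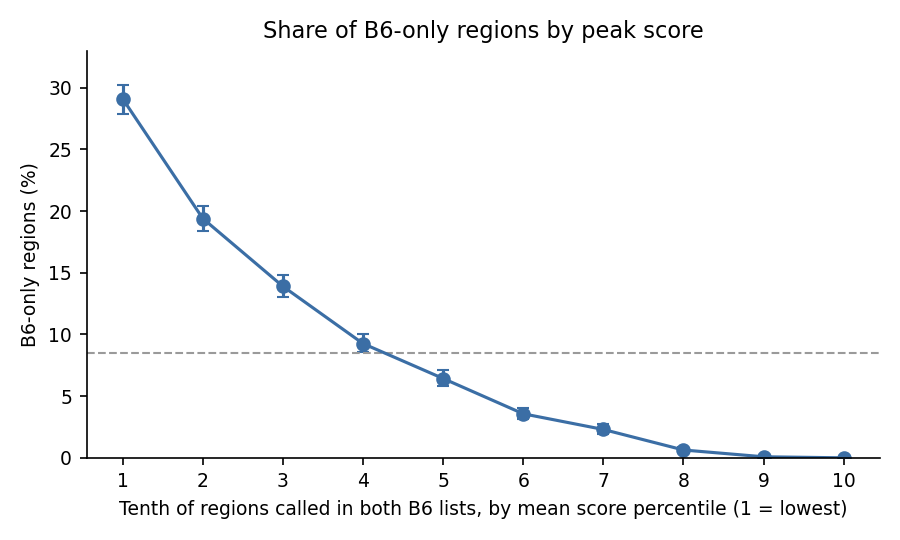
Share of B6-only regions in percent (y axis) in each decile of the regions called in both B6 lists, ordered by mean score percentile (x axis), with 95% Wilson intervals as bars and the share over all deciles as a dashed line. The share goes from 29.1% in the lowest decile to 0 in the highest.

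At the limit itself, the member with the smallest −log10 q-value in either B6 list was at 9:57374395-57374921 in an intron of Cox5a, with −log10 q-values of 2.21 (males) and 1.31 (females). Second by that measure, at 19:40687011-40687342 and 0.124 kb from a start of Entpd1, was a member with 1.32 and 4.86. Just outside lay a region of both B6 lists in an intron of Kdelr3 (15:79356778-79357321), which a CAST call with a −log10 q-value of 1.42 kept out. A region in 9030624J02Rik was kept out by a CAST call at 1.43, and one in Trio by a call at 1.49. Of the 5902 regions with 1 CAST call, 67 had that call at a −log10 q-value of 2 or less.

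CAST calls were often close by. The nearest CAST peak lay at a median of 2932 bp from a member. It lay within 500 bp for 1023 members (20.7%), within 1 kb for 1532 (31.0%) and within 10 kb for 3766 (76.3%). For 163 members (3.30%) no CAST peak lay within 100 kb. The CAST coordinates had been converted from a CAST genome, so their placement was checked. At regions called in all lists the midpoints of B6 male and CAST male peaks differed by a median of −4 to 3 bp per autosome. Peaks there already overlap, so this cannot show a CAST peak lost or moved away at a member. A CAST-only region lay within 2 kb of 118 members (2.39%), against 3.43% of the regions shared with CAST.

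Fold enrichments in the 2 sexes were close for most members. The female value was higher for 2869 members and the male value for 2065, and the median ratio of female to male fold was 1.03, with 1.01 at shared regions. The ratio lay between 0.784 and 1.37 for the middle 90% of members. It was above 1.5 for 77 members and below the inverse of 1.5 for 35. Across members, which are not independent replicates, Spearman's rho between the lists was 0.655, and across regions shared with CAST it was 0.902.

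The members farthest from equality were described after their values were seen. In an intron of Slc22a29, an organic anion transporter gene, at 19:8326036-8327722, the fold was 2.53 in males and 12.2 in females. At H2-Q2, a class I MHC gene (17:35457486-35458366), it was 2.22 and 6.70. Both genes belong to families with similar copies, and mappability there was not tested. In the other direction, a member 34.5 kb from Dll1 had 4.03 in males and 2.13 in females. A member 24.4 kb from Serpina3i had 3.93 and 2.08.

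**Figure D3:**
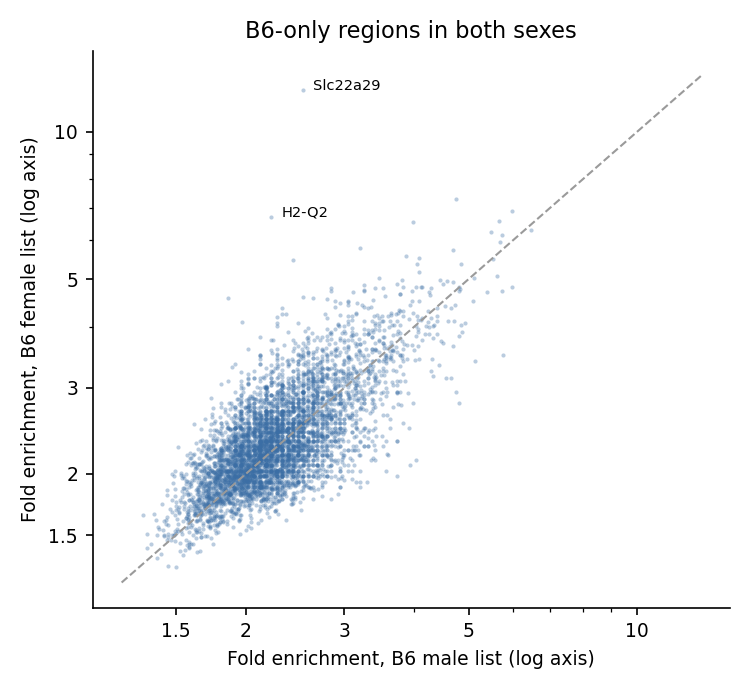
Fold enrichment of each of the 4934 B6-only regions in the B6 male list (x axis, log scale) and the B6 female list (y axis, log scale), 1 point per region, with equality as a dashed line. Most points lie near the line, and the members at Slc22a29 (2.53 and 12.2) and H2-Q2 (2.22 and 6.70) lie farthest above it.

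B6-only regions were narrow. Their median width was 587 bp (quartiles 421.2 and 834), against 1280 bp for the regions of both B6 lists shared with CAST and 572 bp for CAST-only regions. Shared regions join peaks of more lists and are wider in part by construction. The peaks of a single list had medians of 414 bp in members and 963 bp in shared regions (B6 males), and of 439 bp and 885 bp (B6 females). A width of 1 kb or more was found in 801 members (16.2%) and in 65.7% of shared regions. Width and score go together: within the lowest score decile, members had a median width of 500 bp and shared regions 767 bp, and within the seventh, 1099 bp and 1482 bp. The widest member, 2898 bp, lay in an intron of Plcg2 at 8:120117096-120119993, 75.5 kb from Sdr42e1, with folds of 3.89 in males and 3.44 in females. Next came 2709 bp in an intron of Nfasc, 2661 bp over the start of Ly6d, 2536 bp in an intron of Dlgap1 and 2309 bp at 11 kb from Ralgapb.

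Most members lay away from transcript starts. Of the 4934, 708 (14.3%, 95% Wilson interval 13.4 to 15.4) were within 2.5 kb of an annotated start, here called promoters. A further 299 (6.06%) met an exon, 2016 (40.9%) lay in introns and 1911 (38.7%) between genes. The promoter share was 35% among the regions shared with CAST and 19.3% among CAST-only regions. Within the shared class it was 17.9% for the 5902 regions with 1 CAST call and 37.2% for the regions of all lists. The nearest coding start was at a median of 23.4 kb, against 12.5 kb for shared regions, and for 29.3% of members it was over 50 kb away.

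The promoter share was compared per autosome with sign-flip permutation tests over the 19 autosomes (two-sided, 100000 resamples, 4 tests adjusted together by the Benjamini-Hochberg method). B6-only regions had a lower share than shared regions by a mean of 20.3 percentage points (difference −20.3, SD 3.07 over autosomes), lower on 19 of 19 autosomes (adjusted permutation p = 2.67e-05). Against CAST-only regions the mean difference was −5.02 points (SD 4.38), lower on 17 of 19 (adjusted permutation p = 0.00011). That second difference did not hold when gaps in the peak numbers were taken into account. The B6 lists lack 599 (male) and 579 (female) of their own peak numbers, whereas the CAST lists lack 0. Between the peaks on either side of such B6 gaps lay 525 CAST-only regions, of which 78.1% were promoters. Without them the CAST-only share was 14.7% and the mean difference −0.25 points (permutation p = 0.78).

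**Figure D4:**
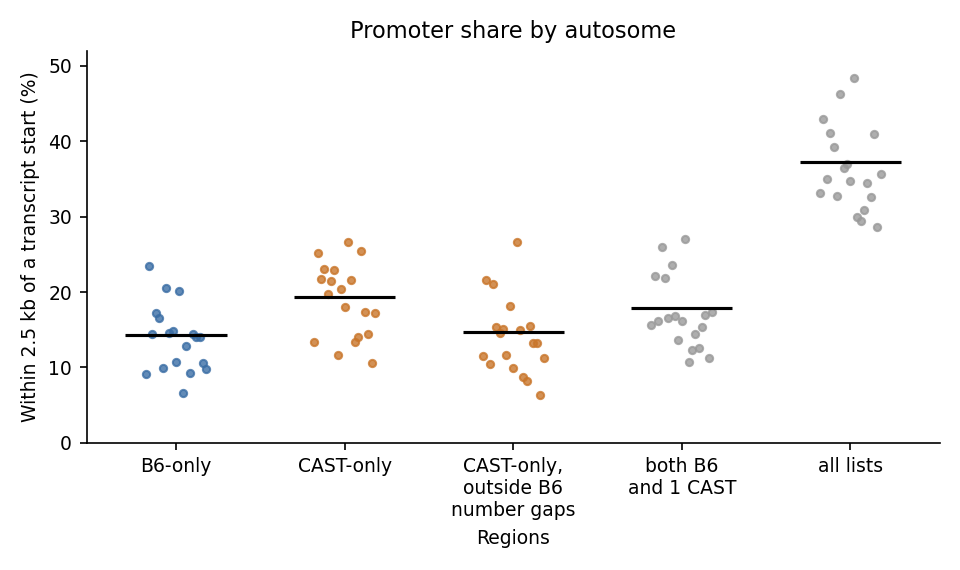
Share of regions within 2.5 kb of a transcript start in percent (y axis) for classes of regions (x axis), 1 point per autosome, with the share over all autosomes as a line. B6-only regions (14.3%) lie below CAST-only regions (19.3%), near CAST-only regions outside the gaps in B6 peak numbers (14.7%), and below regions of all lists (37.2%).

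The contrast with shared regions also varied with score. The calls that chose the members favoured weak peaks. In the highest decile, which held 0 members, 94.8% of shared regions were promoters. A lower overall share in members was thus in part set by the rule, and the test does not separate class from score. In the lowest decile 13.9% of members and 15.5% of shared regions were promoters, and in the seventh 14.9% and 26.3%. Between the fourth decile and the sixth the members' share was 18.9%, 13.6% and 14.4%, while that of shared regions was 19.9%, 22.7% and 22.9%. The members' share thus had no steady course with score, and that of shared regions rose.

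Base composition was compared in the same way, in 200 bp around the summit. The mean G+C content of members was 47.6% (SD 6.43 over regions), that of CAST-only regions 49.2% and that of shared regions 52.5%. In the regions of both B6 lists and 1 CAST list it was 48.4%. The mean difference over autosomes was −4.88 points against shared regions (SD 0.434, adjusted p = 2.67e-05) and −1.74 points against CAST-only regions (SD 1, adjusted p = 2.67e-05), each lower on 19 of 19 autosomes in the sign-flip permutation test. Outside promoters these differences were −1.51 and −1 points. Without the CAST-only regions in gaps of the B6 peak numbers, the difference from that class over all locations was −0.949 (permutation p = 2e-05). Score was not held equal in these tests. Among regions of like score the means were nearer, with 47.1% in members and 48.3% in shared regions of the lowest decile, 48% and 49.4% in the fifth and 49.1% and 51.7% in the eighth. A ratio of observed to expected CpG of at least 0.6 was found in 3.51% of members and 19.9% of shared regions. For regions of both B6 lists and 1 CAST list the figure was 4.17%. Among promoters alone it was found in 9.89% of members and 49.3% of shared regions.

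Short motifs of hepatocyte regulators were counted on both strands of the same 200 bp. FOXA factors, which open liver chromatin, were searched as TGTTTAC and matched in 151 members, 3.06% (95% Wilson interval 2.62 to 3.58), against 2.35% of shared regions (2.22 to 2.48). The C/EBP motif TTGCNNAA matched in 7.28% and 6.48%. The motif TTCNNNGAA of STAT factors, through which growth hormone acts on liver, matched in 6.65% and 5.24%. The E-box CACGTG matched in 2.31% of members and 2.87% of shared regions. The HNF4A motif CAAAGTCCA matched in 18 members (0.365%) and 0.283% of shared regions, and the HNF1 motif GTTAATNAT in 17 members (0.345%) and 0.298%. Outside promoters the shares were 3.15% and 2.81% for FOXA, 7.38% and 7.34% for C/EBP and 6.58% and 5.96% for STAT. For HNF1 the order turned, with 0.308% of members and 0.378% of shared regions, and for HNF4A the shares were 0.402% and 0.32%. None of the 6 was found in 81.4% of members and 83.5% of shared regions. Over all locations, regions of both B6 lists and 1 CAST list had shares of 2.56% for FOXA, 7.32% for C/EBP and 6.39% for STAT. CAST-only regions had 2.55%, 7.5% and 5.77% in that order. For C/EBP both classes lay above the members. The windows of members are poorer in G+C, and the part of base composition in these shares was not tested.

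Members at promoters of named genes were few. Within 1 kb of a coding start lay 226 members at 221 genes. Over all coding genes, 113 of the 12179 called within 1 kb of a start in both B6 lists had no such CAST call (0.928%), and in the mirror class 509 of 12563 (4.05%). At 321 of those 509 genes the CAST-only region lay in a gap of the B6 peak numbers, which leaves 188, a count made after seeing the data. The CAST lists have no such gaps, so none of the 113 could lie in one. At 99 of the genes with a member no CAST list had a call within 1 kb of any coding start, and at the other 122 a CAST call was present at a start. The highest-ranked was at 2810405K02Rik (4:154271905-154273790), with percentiles of 87.2 in males and 91.6 in females. At Dppa3, an early embryonic gene, the folds were 3.23 in males and 4.43 in females. At Lingo2 they were 5.73 and 4.72, and at Eps8l1, a regulator of the actin skeleton, 4.86 and 5.38. A member 298 bp wide at 5430403G16Rik had 4.80 and 4.82. At Steap3, an iron reductase gene, a member 1443 bp wide over a start had 2.75 and 3.02, and a CAST list had a call at another Steap3 start. At Larp4b and Cnot3 the members were 255 and 276 bp wide with a CAST call 0.385 and 0.356 kb away, so CAST had a peak close by.

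Other start members were singled out after their values were seen, for their known roles in liver. At Fgf21, a fasting hormone secreted by liver, a member of 2074 bp over the start (7:52869745-52871818) had folds of 2.22 in males and 2.23 in females, with the nearest CAST call 2616 bp away. At Slc3a1, part of a cystine transporter, the folds were 2.41 and 2.70. At Isg15, an interferon-induced modifier, they were 2.18 and 2.53, and at Ifi44 3.36 and 3.25, and the CAST call nearest to the Ifi44 member was 68304 bp away.

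Of all members, 302 (6.12%) were nearest to a gene of 18 listed families. No matching share over all regions is set beside this total, so it is a description, and shares are given per family. The share of B6-only regions among those of both B6 lists was 17.3% at interferon-induced genes (13 of 75, 95% Wilson interval 10.4 to 27.4), against 8.46% over all regions. At cytochrome P450 genes, which oxidise drugs and steroids, it was 10.5% (29 of 276, 7.42 to 14.7). At serpins, protease inhibitors made by liver, it was 11.8% (13 of 110, 7.04 to 19.2). At olfactory and vomeronasal receptors it was 12.1% (8 of 66, 6.27 to 22.1) and at sulfotransferases 11.1% (3 of 27, 3.85 to 28.1). At solute carriers it was 7.81% (98 of 1255) and at zinc-finger proteins 7.09% (63 of 888). Lower shares were found at hepatocyte transcription factors (5.20%, 13 of 250, 3.06 to 8.69) and lipid and bile acid enzymes (4.59%, 13 of 283, 2.7 to 7.7). So were those at glutathione S-transferases (4.11%, 3 of 73, 1.41 to 11.4) and growth hormone signalling genes (3.5%, 5 of 143, 1.5 to 7.92). The intervals of the families named here include 8.46%, except those of interferon-induced genes, lipid and bile acid enzymes and growth hormone signalling genes. The remaining 7 families lay between 6.58% and 8.45%. In the mirror class of 7265 CAST-only regions, 18 were nearest to interferon-induced genes, 30 to cytochrome P450 genes and 17 to serpins. These families were chosen with results of these data known, and neighbouring regions of 1 gene are not independent.

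Among the interferon-induced genes, 5 of the 13 members were nearest to Iigp1, an immunity-related GTPase. They followed each other with no other region of both B6 lists between them, over 25.7 kb of chromosome 18 (18:60522894-60548553). Their folds in males were 3.46, 3.15, 2.46, 4.43 and 2.2 from one end to the other. In females they were 5.03, 3.25, 2.91, 3.34 and 2.43. The first lay between genes and the other 4 within introns.

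Cytochrome P450 members included one 53.2 kb from Cyp19a1, the aromatase gene, with folds of 3.68 in males and 4.02 in females. One 30.6 kb from Cyp2a12 had 4.18 and 3.86. A member 2.31 kb from Cyp2c37 had 3.05 and 4.43, and one 0.254 kb from Cyp2d22 had 1.72 and 1.92. At serpins, a member 11.2 kb from Serpina3m had 3.82 and 3.40, and one 36 kb from Serpina1a, an antitrypsin gene, had 3.36 and 3.81. Near Mbl2, a complement lectin gene, 2 members had 3.13 and 3.27, and 2.87 and 2.86. Near Fgb, which encodes a fibrinogen chain, a member 0.243 kb from the start had 1.83 and 1.82. The 3 members nearest to Nr5a2, a nuclear receptor of bile acid synthesis, lay 66, 10.3 and 181.7 kb from the start, with male folds of 3.13, 2.13 and 2.12. Near Ghr, the growth hormone receptor gene, a member 0.92 kb from a start had 1.80 and 1.77. The nearest CAST call was 0.267 kb from this Ghr member, 0.384 kb from that of Cyp2c37, 0.308 kb from that of Cyp2d22, 0.919 kb from that of Fgb, and 0.1 and 0.416 kb from those of Mbl2. At Ghr, Fgb and Cyp2d22 a CAST call lay within 1 kb of a coding start. A member 23 kb from Mup21, a major urinary protein gene, had 4.80 and 2.79. Several of these families hold similar copies, the authors kept uniquely mapped reads, and mappability was not tested.

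B6-only regions lay on every autosome, from 153 on chromosome 19 to 368 on chromosome 2. As a share of the regions of both B6 lists they ranged from 7.08% on chromosome 11 to 9.91% on chromosome 14. Groups were formed from members whose neighbours lay at most 100 kb apart. In such groups of 3 or more lay 1654 members (33.5%) in 438 clusters, while 1980 (40.1%) were alone. Ordered along the chromosome, the next region of both B6 lists after a member was also a member in 670 of 4933 cases (13.6%), beside the share of 8.46% over all such regions. Runs of 3 or more members with no shared region between them numbered 91, and the longest, of 6, spanned 33.6 kb at Snhg11 and Ralgapb. Neither the share in clusters nor the count of runs is set beside that of other regions. Both are descriptions and do not show that members group more closely than other regions.

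The clusters with most members held 9 each. One spanned 343.2 kb of chromosome 17 (17:86837803-87181021) over Prkce and Epas1, the latter a hypoxia-inducible transcription factor gene. Its 9 members were among 50 regions of both B6 lists, 38 of which all lists called. Their folds were between 1.52 and 3.20 in males. The other, 386.4 kb on chromosome 9 from Hhatl to Snrk, held 9 of 46 and spans Cyp8b1, a sterol hydroxylase of bile acid synthesis. A cluster of 8 of 34 lay around Dhrs7 and Ppm1a on chromosome 12, and one of 7 of 16 at Slc31a1 and Slc31a2, a pair of copper transporter genes, on chromosome 4.

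Khdrbs3, an RNA-binding protein gene on chromosome 15, had the most members of any gene. All 8 lay in its introns, within 129.0 kb (15:68781532-68910490), and made up 8 of the 16 regions of both B6 lists nearest to the gene. Their male folds were 2.39, 3.11, 2.36, 2.41, 2.19, 2.03, 2.14 and 2.87 in order along the gene. The female folds were 3.35, 3.84, 2.34, 2.51, 2.24, 1.82, 2.29 and 2.90. The second member was the strongest in both sexes. Among the 24 union regions of the cluster, 4 were called in all lists and 0 were CAST-only.

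**Figure D5:**
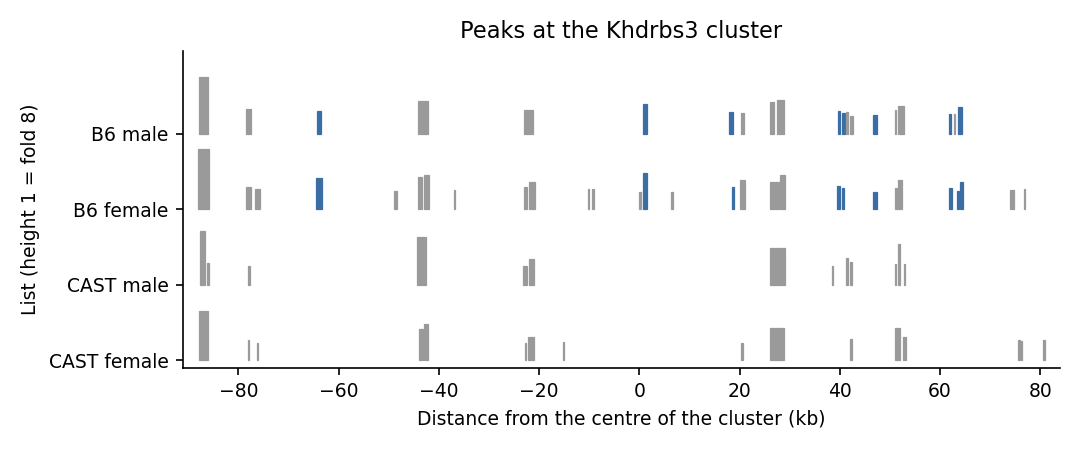
Peaks of the 4 lists (rows) around the Khdrbs3 cluster against distance from its centre in kb (x axis), with the height of a bar giving the fold enrichment and B6-only regions in blue. The 8 members are interspersed with peaks that all lists share.

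Next came Gm10309, Gpc6, Kdr and Zfp36l2 with 7 members each, and those counted for Gm10309 lay within Prkce. Kdr encodes a receptor of vascular endothelial growth factor. Its 7 members lay between genes, 47.6 to 178.0 kb from the start, among 18 regions of both B6 lists. The one with the highest mean percentile, at 5:76422063-76423256, had folds of 3.79 in males and 2.77 in females. In females the highest fold was 3.6, at 5:76195837-76196447, where males had 2.01. Kdr also had 5 CAST-only regions, and its own start was called in every list, with folds from 2.28 to 3.05. The members with Gpc6, a cell-surface proteoglycan gene, as the nearest start were 7 of 20 and lay 410.4 to 683.7 kb from it, 3 in introns of Gpc6 and 4 in introns of its neighbour Gpc5. Those nearest to Zfp36l2, an mRNA-decay factor gene, were 7 of 39, and 6 of these members lay within the neighbouring gene Thada and none within Zfp36l2. In all, 3419 coding genes were nearest to a member, 2444 of them to 1 member and 59 to 5 or more. For comparison, 14490 genes were nearest to a region of both B6 lists.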

How the data were processed

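By their methods, the authors merged the reads of a group's livers, aligned them with Bowtie2, keeping unique matches, and called peaks with MACS2 against input. Peaks in blacklisted regions or made of PCR duplicates alone were removed. The build named in the submitters' processing notes is mm9. For CAST a strain genome served for alignment, and coordinates were converted to mm9. In each of 4 lists the authors deposited a score, a fold enrichment (ratio) over background, a −log10 p-value (not used here), a −log10 q-value and the summit offset of each peak. Read depth was not analysed here. From the lists, autosomal peaks were merged into union regions, scores were ranked within a list with ties broken by q-value and fold, and regions were annotated with GENCODE vM1 on NCBIM37, the same build. Promoters lay within 2.5 kb of a start. Sign-flip permutation tests over 19 autosomes were tested on simulated data. Wilson intervals cover counting error only.

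Named members were the 10 with the highest mean percentile and a fold of at least 1.5 in both lists, the same within 1 kb of a coding start, the 5 widest, the 5 largest clusters, the 5 genes nearest to most members and the first of each family, of which part is printed. Ties between clusters went to the smaller span. Members, lists and tests were chosen with earlier results of these data known. Alternatives covered peak joining, list length, score and q-value limits, distances and each autosome left out. Python scripts with pandas, numpy and scipy were used.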

Additional observations from a re-analysis of the deposited data

How the results depend on the processing

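The number of B6-only regions (4934) was 610 in the upper 50% by score in both sexes and 9306 as fixed bins of 1 kb. It stayed within 1.5 times under the other settings, from 3402 without a CAST call within 1 kb to 5767 with lists of equal length. Their promoter share (14.3%) was 12.8% without a CAST call within 1 kb, 8.65% at protein-coding starts and 8.05% within 1 kb of a start. The share in clusters (33.5%) was 17% with neighbours at most 50 kb apart and 55.1% at 200 kb. The share followed by another member (13.6%) was 16% with equal list lengths. In alternatives chosen after seeing the data, the FOXA share was 3.93% in the upper 50% by score. The promoter difference from CAST-only regions (−5.02 points) was −0.25 (permutation p = 0.78) outside gaps in peak numbers of the other strain, and −3.52 (permutation p = 0.149) there in the upper 50% by score. Without that gap limit, the upper 50% gave −25.7. The difference from shared regions kept its sign and stayed past 0.05 under every setting run.

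Leaving out each autosome gave 4566 to 4781 members, a promoter share of 13.6% to 14.7% and promoter differences of −5.47 to −4.47 points from CAST-only regions and −20.6 to −20.0 points from shared regions. No paired analysis was possible because there is 1 list per group. The lists hold no reads, so a CAST signal under the calling limit could not be seen.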
